A study of Mus musculus with 4 samples.

Results

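The 10 genes followed here belong to the MHC class I pathway and were described across immune cells of the mouse brain. They are H2-K1, H2-D1, B2m, Tap1, Tap2, Tapbp, Psmb8, Psmb9, H2-T23 and Nlrc5. They were taken by gene symbol, and the 10 symbols matched 10 of the 32285 genes counted. The study sorted CD45+ cells, that is leukocytes and microglia, from brains of wild-type mice and sequenced them by droplet-based single-cell RNA sequencing at the 3′ end of transcripts. Mice had undergone cardiac arrest (CA) brought on by potassium chloride and resuscitation, or a sham operation without the arrest, and brains were taken on day 3. The groups were young CA, young sham, aged CA and aged sham, where young means 3 to 6 months and aged means 18 to 20 months. Every group consisted of a single library made from the pooled cells of 3 mice. Differences between groups could therefore not be tested over animals, and the 95% intervals given cover only counting error of the unique molecular identifiers (UMIs). The animal of each cell is not given in the sources used here, so 1 animal of a pool could carry a difference.

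MHC class I molecules show fragments of a cell's own proteins to CD8 T cells, and natural killer cells read their presence. A heavy chain (H2-K1, H2-D1 and the non-classical H2-T23, which encodes Qa-1) pairs with beta-2 microglobulin, the product of B2m. Peptides are cut by the proteasome, into which the inducible subunits Psmb8 and Psmb9 are built under interferon, pumped into the endoplasmic reticulum by the Tap1 and Tap2 transporter, and loaded with the help of tapasin, the product of Tapbp. Nlrc5 encodes the transactivator that drives transcription of several of these genes. In the resting brain, class I transcripts are known to be low in neurons and present in microglia, and interferons raise them.

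Of the 10 genes, 8 lie on chromosome 17 in the mouse MHC (GRCm38, GENCODE M21), among them H2-K1 (33996017 to 34000347, minus strand), H2-D1 (35262730 to 35267499, plus strand) and H2-T23 (36029773 to 36032855, minus strand). B2m lies on chromosome 2 (122147686 to 122153083, plus strand) and Nlrc5 on chromosome 8 (94434356 to 94527272, plus strand). Psmb9 (34181987 to 34187764, minus strand) and Tap1 (34187553 to 34197225, plus strand) are neighbours that point away from each other, and their RefSeq transcription starts are 226 bases apart. Tap2 (34203527 to 34216321), Psmb8 (34197721 to 34201454) and Tapbp (33915899 to 33929292) lie on the plus strand close by. Promoters of 8 of the 10 genes were found in RefSeq (GRCm38.p6), the exceptions being Tap2 and Nlrc5. The promoters of 4 are shown, from 250 bases before to 50 after the start, because B2m and the classical heavy chains are on different chromosomes but carried levels that were higher together after CA, while Tap1 shares its start region with Psmb9, whose level did not follow it in aged mice. Capitals mark the letters of 4 motifs, searched on both strands: AANNGAAA (the core of interferon response elements), TGACG (a CRE-like core), CCAAT (the Y box) and an NF-kB-like motif, which is GGGA and CC with 4 free bases between them.
B2m, chr2:122147437-122147736, plus strand: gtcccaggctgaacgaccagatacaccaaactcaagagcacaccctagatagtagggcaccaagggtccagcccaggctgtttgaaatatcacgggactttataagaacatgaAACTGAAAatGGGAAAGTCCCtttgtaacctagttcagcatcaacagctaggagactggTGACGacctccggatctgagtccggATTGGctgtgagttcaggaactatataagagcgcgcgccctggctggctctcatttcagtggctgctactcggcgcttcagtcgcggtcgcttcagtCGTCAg
H2-K1, chr17:34000298-34000597, minus strand: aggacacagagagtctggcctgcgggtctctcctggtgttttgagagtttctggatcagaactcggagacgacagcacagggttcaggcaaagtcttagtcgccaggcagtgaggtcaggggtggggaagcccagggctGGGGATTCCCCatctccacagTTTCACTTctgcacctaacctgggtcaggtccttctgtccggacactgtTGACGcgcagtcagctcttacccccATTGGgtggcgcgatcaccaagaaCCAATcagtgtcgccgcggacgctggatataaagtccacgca
H2-D1, chr17:35262844-35263143, plus strand: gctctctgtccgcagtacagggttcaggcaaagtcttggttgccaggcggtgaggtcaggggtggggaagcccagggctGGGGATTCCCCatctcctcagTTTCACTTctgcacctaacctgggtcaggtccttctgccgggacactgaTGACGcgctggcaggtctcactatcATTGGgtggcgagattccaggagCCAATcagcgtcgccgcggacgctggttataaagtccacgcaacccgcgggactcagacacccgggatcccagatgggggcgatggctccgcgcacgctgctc
Tap1, chr17:34187306-34187605, plus strand: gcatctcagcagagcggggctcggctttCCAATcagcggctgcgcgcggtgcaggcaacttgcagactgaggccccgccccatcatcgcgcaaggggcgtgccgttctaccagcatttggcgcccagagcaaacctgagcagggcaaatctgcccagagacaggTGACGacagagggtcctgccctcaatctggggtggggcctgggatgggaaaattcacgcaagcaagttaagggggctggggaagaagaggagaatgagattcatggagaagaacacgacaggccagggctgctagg

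H2-K1 and H2-D1 shared an identical run of 47 bases, from base -141 of H2-K1 and base -201 of H2-D1 counted from the start, that holds the NF-kB-like letters. In B2m, H2-K1 and H2-D1 the interferon core and the NF-kB-like letters stood next to each other, followed by the CRE-like core and the Y box. The NF-kB-like matches on the plus and minus strands overlapped each other by all but 1 base and are 1 site in each promoter. All 4 motifs were found in these 3 promoters and in 94 of the 32851 promoters of that length (0.286%). Over the 8 promoters, 4 held AANNGAAA (23.9% of all promoters), 5 held TGACG (20.8%), 7 held CCAAT (37.4%) and 3 held the NF-kB-like motif (20.7%). The Psmb8 promoter held 0 of the 4 motifs. Those of Tap1 and Psmb9 held only TGACG and CCAAT, that of H2-T23 only AANNGAAA and CCAAT, and that of Tapbp only CCAAT. Psmb8 and Tap1 were also higher in young CA microglia-like cells (log2 ratios of 0.99 and 1.12), while Tapbp was not (0.01). A link between motifs and levels was not tested. Such matches describe letters and not bound sites. Of the 411 windows of 90 bases in the last 500 bases of its transcript, H2-T23 shared 55 (13.4%) with H2-T-ps, Hook2 or Rab33b, so its counts are uncertain, while the other 9 genes shared none.

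Libraries held 44277472 to 115892682 UMIs over 6794 to 10794 barcodes, with medians of 9857 UMIs per kept cell in young CA, 6368 in young sham, 10432.5 in aged CA and 3130.0 in aged sham. Cells were assigned to classes by marker genes and are called by the class they resemble. Microglia-like cells, the class that carries the main comparisons, numbered 9168 in young CA, 8159 in young sham, 4889 in aged CA and 5859 in aged sham. In them the summed level of the 10 microglial markers was 12705 CPM in young CA, 19452 in young sham, 8104 in aged CA and 16448 in aged sham, with none of the 10 at 0. The same 10 markers assigned the cells to the class, so these levels do not test the label. CPM is a gene's UMIs in the summed cells of a class, scaled to the same total in each library. Neutrophil, T cell and erythroid transcripts were highest in microglia-like cells of aged sham. The 11 neutrophil markers summed to 30.3 CPM in young CA, 31.7 in young sham, 78.6 in aged CA and 580.1 in aged sham, and none of the 11 was at 0 in any library. The 10 T cell markers summed to 3.46 CPM in young CA, 7.76 in young sham, 4.11 in aged CA and 34.4 in aged sham, again with none at 0. The 5 erythroid markers summed to 3.33, 5.04, 3.58 and 93.1 CPM in the same order, with none at 0. The part of these neutrophil, T cell and erythroid transcripts in the results that rest on aged sham was not tested. Monocyte or macrophage markers were not highest in aged sham. Their median level per cell is given relative to barcodes that clearly carry them. It was 0.024 in young CA, 0.004 in young sham, 0.015 in aged CA and 0.009 in aged sham, and its part was not tested either. Between 52 and 79 kept barcodes of a library also occurred in another library.

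In young microglia-like cells most of the 10 genes were about 2-fold higher or more after CA than after sham. The exceptions were the transporter's second chain, tapasin and Psmb9. The classical heavy chain H2-K1 stood at 548 CPM in young CA and 275 CPM in young sham. H2-D1, the other classical heavy chain, stood at 671 CPM in young CA and 313 CPM in young sham. The non-classical H2-T23, whose protein is a ligand of inhibitory receptors on natural killer cells, stood at 307 CPM in young CA and 130.4 CPM in young sham. The heavy chains were thus higher in young CA by log2 ratios of 0.99 (0.97 to 1.02) for H2-K1, 1.10 (1.08 to 1.12) for H2-D1 and 1.23 (1.20 to 1.27) for H2-T23. B2m, the shared light chain, stood at 1990.5 CPM in young CA and 991 CPM in young sham, a log2 ratio of 1.01 (0.99 to 1.02). Light and heavy chains thus differed by similar factors.

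**Figure D1:**
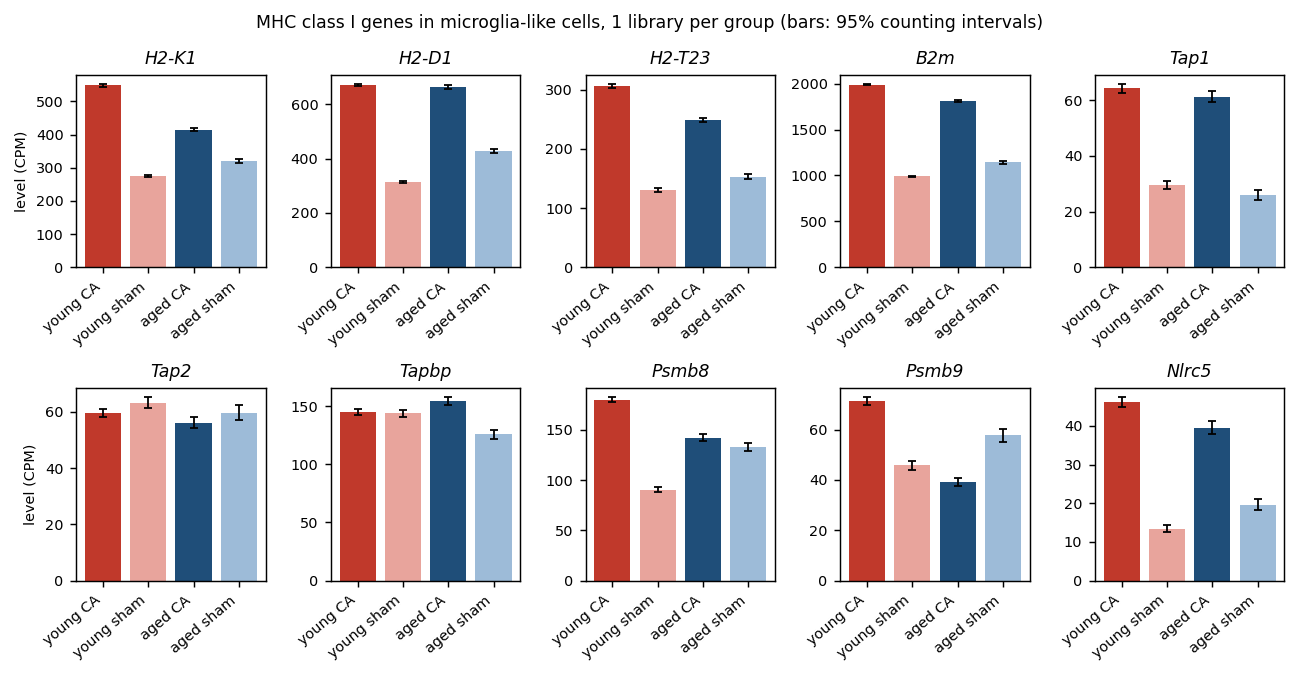
Level in CPM of the 10 genes in microglia-like cells of the 4 libraries, with 95% Poisson counting intervals as error bars. B2m stood at 1990.5 and 1811 CPM in the CA libraries and at 991 and 1141 CPM in the sham libraries, while Tap2 stayed between 56.1 and 63.3 CPM in the 4 libraries.

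The peptide pump was uneven. Tap1 stood at 64.3 CPM in young CA and 29.5 CPM in young sham, a log2 ratio of 1.12 (1.05 to 1.20). Its partner Tap2 stood at 59.6 CPM in young CA and 63.3 CPM in young sham, a log2 ratio of -0.09 (-0.14 to -0.03), which was 0.03 with TMM scaling. Tapbp, the bridge between transporter and empty heavy chain, stood at 145 CPM in young CA and 144 CPM in young sham (0.01, -0.03 to 0.05, and -0.06 with cells thinned to 2000 UMIs). The inducible proteasome subunit Psmb8 was at 180.1 CPM in young CA and 90.4 CPM in young sham (0.99, 0.95 to 1.04), and Psmb9 at 71.3 CPM in young CA and 45.7 CPM in young sham (0.64, 0.58 to 0.70). Nlrc5, the transactivator, had the largest ratio of the 10, at 46.1 CPM in young CA and 13.4 CPM in young sham, which is 3.43-fold (3.19 to 3.69). Of the 10 genes, 5 were at least 2-fold higher in young CA (H2-D1, B2m, Tap1, H2-T23 and Nlrc5) and 0 were at least 2-fold lower. Among all 9554 genes with at least 20 UMIs and 10 CPM in 1 of the libraries compared, 6.54% were at least 2-fold higher and 3.12% at least 2-fold lower. H2-K1 and Psmb8 lay just under this limit (1.99-fold each) and B2m just over it (2.01-fold). The median log2 ratio of the 10 was 1.0, against -0.07 over all genes.

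In aged microglia-like cells Tap1 and Tap2 had ratios like those in young mice, while the ratios of the chains, Nlrc5, Psmb8 and Psmb9 were smaller. H2-K1 stood at 415 CPM in aged CA and 319 CPM in aged sham, H2-D1 at 663 CPM in aged CA and 428 CPM in aged sham, and H2-T23 at 249 CPM in aged CA and 153 CPM in aged sham. Their log2 ratios were 0.38 (0.34 to 0.41), 0.63 (0.60 to 0.66) and 0.70 (0.65 to 0.75). B2m stood at 1811 CPM in aged CA and 1141 CPM in aged sham (0.67, 0.65 to 0.68). Tap1 stood at 61.2 CPM in aged CA and 25.8 CPM in aged sham, a log2 ratio of 1.25 (1.14 to 1.36), and Nlrc5 at 39.5 CPM in aged CA and 19.6 CPM in aged sham (1.01, 0.88 to 1.14), and these were the 2 genes at least 2-fold higher, where 6.59% of 9814 genes were. Nlrc5 was just over this limit, and its log2 ratio was 0.97 to 0.99 with thinned cells, a pseudocount of 1 CPM, a broader microglial marker list or barcodes shared between libraries left out, so that 1 gene passed it. Tap2 again stood apart from Tap1, at 56.1 CPM in aged CA and 59.6 CPM in aged sham (-0.09, -0.17 to -0.00, and 0.05 with TMM scaling). Tapbp was at 154 CPM in aged CA and 126 CPM in aged sham (0.30, 0.24 to 0.35).

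Psmb9 stood lower in aged CA, at 39.2 CPM in aged CA and 57.7 CPM in aged sham, a log2 ratio of -0.56 (-0.65 to -0.47). Psmb8 stood at 142 CPM in aged CA and 133 CPM in aged sham (0.10, 0.04 to 0.15). None of the 10 was at least 2-fold lower, where 9.98% of genes were. The median log2 ratio was 0.50, against 0.03 over all genes.

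**Figure D2:**
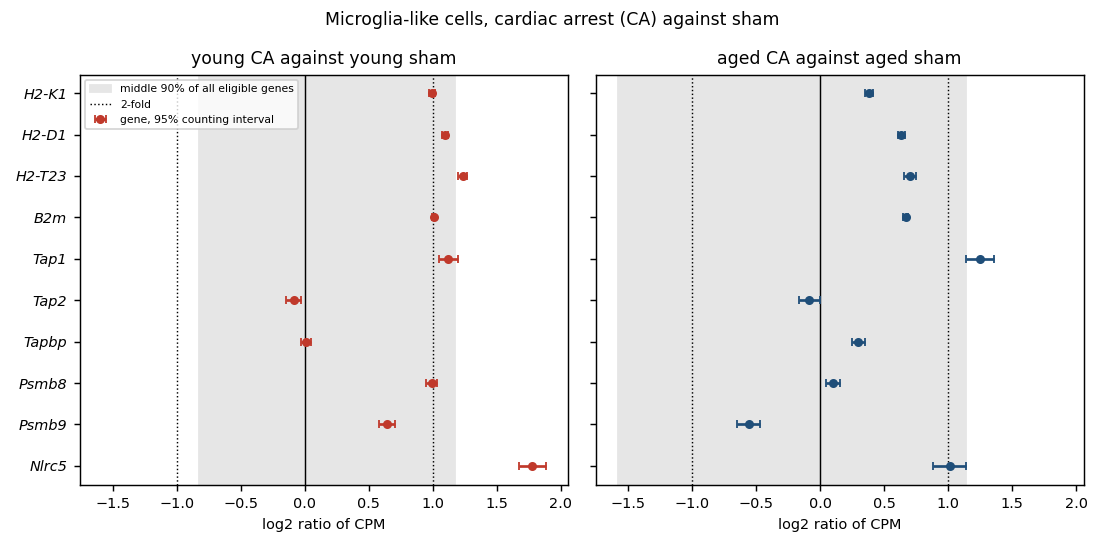
Log2 ratio of CPM in CA to sham for the 10 genes in young (left) and aged (right) microglia-like cells, with 95% counting intervals. The grey band holds the middle 90% of all genes compared, from -0.83 to 1.17 in young and from -1.58 to 1.14 in aged, and Nlrc5 and H2-T23 in young and Tap1 in aged lie to the right of it.

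The ratio of CA to sham was set against age by subtracting the young log2 ratio from the aged one. The difference was below 0 for 8 of the 10 genes and its median was -0.50, while 45.6% of 9297 genes were below 0 with a median of 0.04. It was -1.20 for Psmb9 (-1.31 to -1.09), -0.90 for Psmb8 (-0.97 to -0.83), -0.77 for Nlrc5 (-0.93 to -0.60) and -0.62 for H2-K1 (-0.66 to -0.57). It was 0.29 for Tapbp (0.22 to 0.35), 0.13 for Tap1 (-0.01 to 0.26) and -0.00 for Tap2 (-0.10 to 0.10). A difference of at least 1 either way was found for 4.75% of all genes. These intervals hold counting error only, and the difference between ages was not tested over animals.

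Without CA, 7 of the 10 genes were higher in aged than in young microglia-like cells and 3 were lower. Of all 9506 genes compared, 41.2% had a log2 ratio above 0. In aged sham, Psmb8 was at 133 CPM, against 90.4 CPM in young sham (log2 ratio 0.56, 0.50 to 0.61). Nlrc5 was at 19.6 CPM in aged sham and 13.4 CPM in young sham (0.55, 0.40 to 0.69). H2-D1 was at 428 CPM in aged sham and 313 CPM in young sham (0.45, 0.42 to 0.48). H2-K1, H2-T23 and B2m had ratios of 0.20 to 0.23, Psmb9 of 0.33 (0.25 to 0.42), and Tap1, Tapbp and Tap2 of -0.20, -0.19 and -0.09. None of the 10 passed 2-fold either way, where 3.46% of 9506 genes were at least 2-fold higher and 0.189% at least 2-fold lower. The aged sham library is the one with the most neutrophil, T cell and erythroid transcripts in these cells, as given above.

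After CA the aged level was below the young level for 9 of the 10 genes, and the interval lay below 0 for 8. Of all 9407 genes compared, 52.9% had a log2 ratio above 0, and intervals were not counted over all genes. These comparisons use the same 4 libraries as those of CA with sham. Psmb9 differed most, at 39.2 CPM in aged CA and 71.3 CPM in young CA (log2 ratio -0.86, -0.93 to -0.79), followed by H2-K1 (-0.40), Psmb8 (-0.34) and H2-T23 (-0.30). H2-D1 was at 663 CPM in aged CA and 671 CPM in young CA, and its interval for the ratio reached 0 (-0.02, -0.04 to 0.00, and 0.05 with cells thinned to 2000 UMIs). Tapbp was the gene above 0 (0.09, 0.05 to 0.13). None passed 2-fold, where 2.3% of 9407 genes were at least 2-fold higher and 3.33% at least 2-fold lower.

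Levels depended on the depth of the cell, and depth differed between libraries. Cells under 2000 UMIs made up 5.44% of microglia-like cells in young CA, 8.98% in young sham, 2.99% in aged CA and 32.8% in aged sham. B2m stood at 1163, 1027, 876 and 1005 CPM in young CA, young sham, aged CA and aged sham in cells of 500 to 2000 UMIs. In the same order it stood at 784, 445, 811 and 736 CPM in cells of 2000 to 5000 UMIs, and at 2142, 1166, 1926 and 1279.9 CPM in cells of at least 10000 UMIs. Other genes differed from B2m. In young CA, H2-K1 was at 495 CPM in the shallowest and 571 CPM in the deepest cells, and H2-T23 at 417 and 278 CPM. In young mice the median log2 ratio of the 10 genes was 0.72, 0.79, 1.01 and 0.97 from the shallowest to the deepest cells (500 to 2000, 2000 to 5000, 5000 to 10000 and at least 10000 UMIs), and in aged mice 0.13, 0.37, 0.42 and 0.52. Heavy chains, Tap1 and Nlrc5 were higher in CA, with intervals above 0, in the 4 depth ranges in young mice and in the 3 deeper ranges in aged mice, and Psmb9 in aged mice was lower in those 3 (-1.05, -0.53 and -0.53). In the shallowest aged cells the interval held 0 for H2-K1 (0.08, -0.27 to 0.42), H2-D1 (0.18, -0.11 to 0.45), Nlrc5 (0.88, -0.41 to 1.97) and Psmb9 (-1.02, -2.36 to 0.05), the last on 7 aged CA UMIs. In aged mice Psmb8 was lower in CA in the 3 shallower ranges (-0.86, -0.77 and -0.17) and higher in the deepest (0.21), and the B2m ratio was -0.20 in the shallowest range (-0.43 to 0.02). The direction of aged Psmb8 therefore depended on which cells were summed. The depth ranges were chosen after seeing the data.

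The same counts were also read as shares of cells. With each cell thinned to 2000 UMIs, at least 1 Nlrc5 UMI was seen in 8.43% of young CA, 2.29% of young sham, 7.19% of aged CA and 3.88% of aged sham microglia-like cells. Without thinning the shares were 27.8%, 6.50%, 23.8% and 7.31%. In neuron-like cells thinned to the same depth, which should lack Nlrc5, the shares were 2.22%, 0 of 106 cells, 0 of 146 cells and 1.29%, and the intervals of the zero shares reach 3.42% and 2.49%. The young sham share of 2.29% lies below the 3.42% limit, but that limit rests on only 106 cells and cannot place the share. Without thinning, young sham neuron-like cells held 0 Nlrc5 UMIs, against 13.4 CPM in microglia-like cells. The interval of that level reached 6.1% of the microglia-like level. B2m was seen in 87.3% of young CA, 69.3% of young sham, 86.1% of aged CA and 76.0% of aged sham microglia-like cells, and in 14.4%, 7.55%, 6.16% and 25.0% of neuron-like cells. Unthinned B2m shares were 93.7%, 83.8%, 93.9% and 80.2% in microglia-like cells. The thinned sets left out 499, 733, 146 and 1920 microglia-like cells in the same order.

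The 10 genes were next set against the interferon response of the single cell. Microglia-like cells, thinned to 2000 UMIs, were graded by how many genes of a list of 19 interferon-induced genes were seen, among them Ifit3, Isg15, Rsad2 and Irf7, and the list held none of the 10. Cells with at least 4 of them made up 29.4% of young CA and 0.929% of young sham cells, and 23.4% of aged CA and 2.89% of aged sham cells (71.1%, 10.9%, 60.8% and 11.1% without thinning). Cells with 0 made up 13.9%, 52.9%, 24.2% and 48.4%. The transactivator Nlrc5 was at 84.5 CPM in young CA cells with at least 4 list genes and 18.3 CPM in those with 0, a 4.61-fold difference (3.38 to 6.44). The same step was 18.7-fold in young sham (11.3 to 30.1), 7.19-fold in aged CA (5.0 to 10.6) and 8.51-fold in aged sham (5.15 to 13.8). Tap1 was higher in the top grade by 2.60-fold (2.07 to 3.29), 3.54-fold (1.91 to 6.07), 3.76-fold (2.89 to 4.94) and 2.88-fold (1.55 to 5.02) in the same order. B2m was graded less steeply, 1.57-fold in young CA, 1.77-fold in young sham, 1.25-fold in aged CA and 1.36-fold in aged sham. H2-D1 in aged CA had the same level in the top and bottom grades (1.01-fold, 0.94 to 1.09). The top grade of the sham libraries rests on 69 and 114 cells in young and aged.

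**Figure D3:**
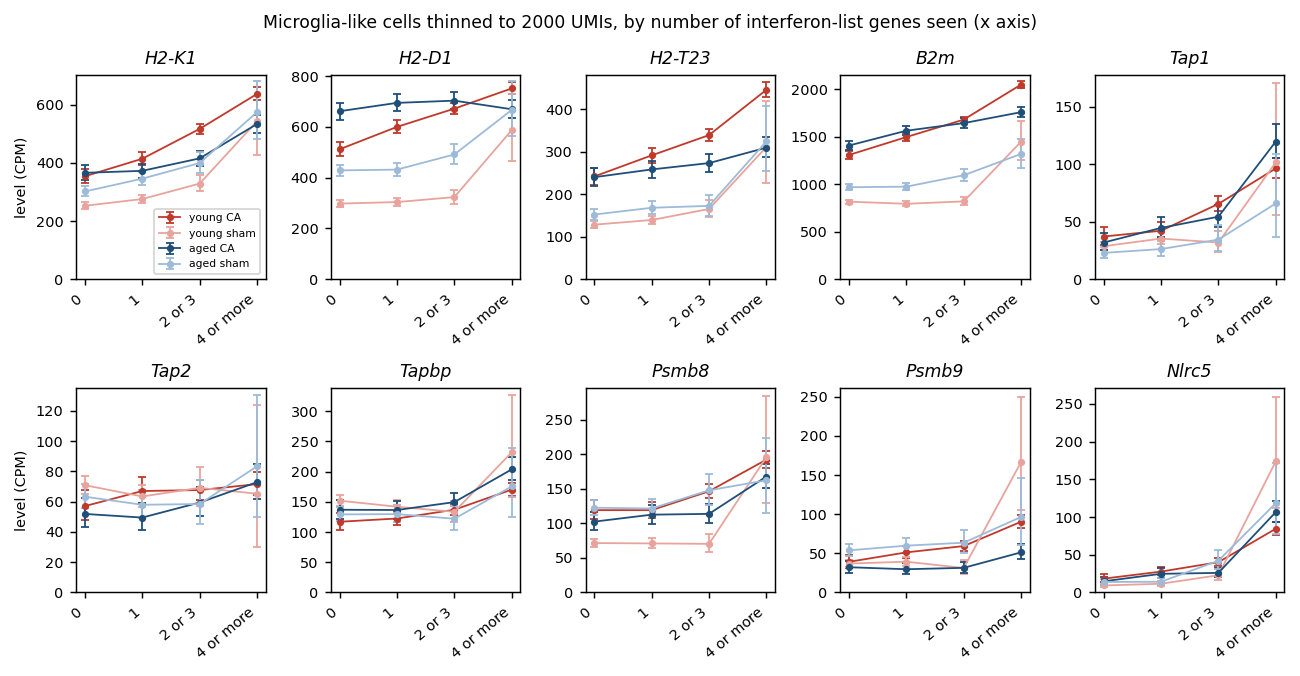
Level in CPM of the 10 genes in microglia-like cells thinned to 2000 UMIs, by the number of interferon-list genes seen in the cell, with 95% counting intervals. Nlrc5 reaches 84.5 to 174 CPM in the top grade of each library, and Psmb9 in aged CA lies below aged sham in every grade.

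Cells with none of the list genes still differed between CA and sham. In young mice the log2 ratio of CA to sham in such cells was 0.68 for B2m (0.62 to 0.74), 0.78 for H2-D1 (0.68 to 0.88), 0.91 for H2-T23 (0.76 to 1.06) and 0.49 for H2-K1 (0.37 to 0.60). In aged mice these ratios were 0.54, 0.63, 0.66 and 0.28. Psmb9 did not differ beyond its interval in young mice (0.09, -0.27 to 0.43) and was lower in aged mice (-0.74, -1.14 to -0.35). Psmb9 in aged mice was lower in CA within each grade, with log2 ratios of -0.74, -1.01, -1.01 and -0.91 from 0 to at least 4 list genes. In the top grade of young mice Nlrc5 was lower in CA than in sham (-1.04, -1.63 to -0.38), on 2550 CA and 69 sham cells, and so was Psmb9 (-0.88, -1.49 to -0.21). In aged mice Nlrc5 was lower in CA in cells with 2 or 3 list genes (-0.70, -1.25 to -0.13). A cell thinned to 2000 UMIs can miss transcripts, so the 0 grade is not a class without interferon response.

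The rest of the pathway was read from lists. Beside their counts stand the shares over all genes given above, which are 6.54% at least 2-fold higher and 3.12% lower in young and 6.59% and 9.98% in aged, with 44.0% and 52.4% of genes above 0. Among other class I heavy chains and relatives, 9 of 15 genes in the files could be compared in young microglia-like cells, 9 of 9 were above 0 and 4 were at least 2-fold higher, with a median log2 ratio of 0.83. These 4 were H2-Q7, at 29.2 CPM in young CA and 9.60 CPM in young sham (1.61, 1.48 to 1.73), H2-Q6 (13.4 CPM in young CA and 4.84 CPM in young sham, 1.47), H2-T22 (41.3 CPM in young CA and 17.4 CPM in young sham, 1.25) and H2-Q4 (21.3 CPM in young CA and 9.66 CPM in young sham, 1.14). In aged mice 8 could be compared, 7 were above 0, 0 were at least 2-fold higher and the median was 0.29. H2-T22 was at 38.2 CPM in aged CA and 20.3 CPM in aged sham (0.91) and H2-Q4 at 21.2 CPM in aged CA and 14.1 CPM in aged sham (0.59). H2-Q7 was at 15.8 CPM in aged CA and 17.7 CPM in aged sham (-0.17, -0.32 to -0.01), and Hfe, a class I relative of iron balance, had ratios of 0.01 in young and 0.09 in aged. H2-Q6, H2-Q7 and their relatives are near-identical, so reads can be shared among them and their values are uncertain.

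A list of 6 further genes of the inducible proteasome and its activator does not hold Psmb8 and Psmb9, which are described above. In young mice 6 of 6 were above 0 (median 0.69) and 1 was at least 2-fold higher, and in aged mice 6 of 6 were above 0 (median 0.39). Psme2b was the lowest at both ages (0.01 in each), with intervals that held 0. Psme1, a subunit of the activator that opens the proteasome, stood at 228 CPM in young CA and 107 CPM in young sham (1.09, 1.05 to 1.13) and at 199.8 CPM in aged CA and 142 CPM in aged sham (0.49). Of the standard proteasome, 14 of 14 genes were above 0 at both ages, with medians of 0.75 in young and 0.64 in aged, and none passed 2-fold. Its extremes were Psmb4 (1.0) and Psma3 (0.29) in young and Psmb3 (1.0) and Psma1 (0.25) in aged. The inducible subunits Psmb8 and Psmb9 thus had lower aged ratios (0.10 and -0.56) than any standard subunit.

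**Figure D4:**
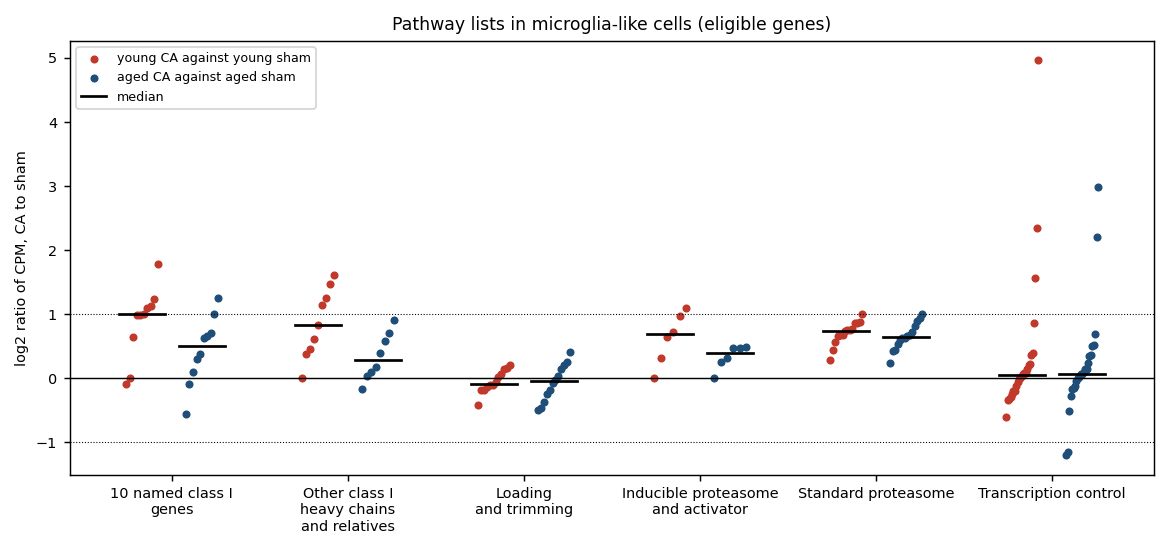
Log2 ratio of CPM in CA to sham of each gene that could be compared, in young (left points) and aged (right points) microglia-like cells, by list, with the median as a bar. Loading and trimming genes lie around 0, standard proteasome genes lie between 0.25 and 1.0, and Irf7 is the highest point at 4.96 in young.

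Of the loading and trimming factors, 5 of 12 were above 0 in young mice (median -0.08) and 5 of 12 in aged mice (median -0.05), and none passed 2-fold. These counts were near the shares over all genes. Canx, the chaperone that first binds the heavy chain, was at 333 CPM in young CA and 446 CPM in young sham (-0.42), and at 274 CPM in aged CA and 376 CPM in aged sham (-0.46). Hspa5, a general chaperone of the endoplasmic reticulum, was at 346 CPM in aged CA and 487 CPM in aged sham (-0.49). Bcap31 (0.20 in young) and Sec61a1 (0.40 in aged) were the highest of the list.

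A list of genes of transcription control holds transcription factors and also interferon receptors, the kinases Jak1, Jak2 and Tyk2, and Socs1. Its aged counts past 2-fold were near the shares over all genes. In young mice 14 of 24 were above 0 and 3 were at least 2-fold higher, and in aged mice 15 of 23 were above 0, 2 were at least 2-fold higher and 2 at least 2-fold lower. Irf7, the interferon-induced interferon regulatory factor, stood at 83.2 CPM in young CA and 2.67 CPM in young sham, and at 51.7 CPM in aged CA and 6.52 CPM in aged sham. Stat2, which carries the signal of type I interferon, stood at 121 CPM in young CA and 23.8 CPM in young sham (2.34) and at 139 CPM in aged CA and 30.1 CPM in aged sham (2.21). Creb1 and Nfya, whose products bind elements of the class I promoter, were at 79.6 and 31.4 CPM in aged CA and 177 and 71.9 CPM in aged sham (-1.15 and -1.19). Of genes tied to interferon gamma, 2 of 8 were at least 2-fold higher in young (median 0.47) and 6 of 9 in aged (median 1.54), with Gbp2 at 41.1 CPM in aged CA and 5.12 CPM in aged sham. Of the interferon list 17 of 17 were at least 2-fold higher in young (median 3.72) and 15 of 18 in aged (median 2.76).

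Across cell classes, the order of the levels depended on the library. H2-K1 stood at 2148 CPM in aged sham T cell-like cells, 1537 CPM in young CA dendritic cell-like cells and 1335 CPM in young CA monocyte- or macrophage-like cells, intervals that did not overlap. It stood at 496 CPM in aged CA monocyte- or macrophage-like cells, below the 775 to 1116 CPM of border-associated macrophage-like cells, and microglia-like cells held 275 to 548 CPM. Psmb8 stood at 1053 CPM in young CA dendritic cell-like cells, the highest of the classes with at least 50 cells, against 180.1 CPM in young CA microglia-like cells. B2m in aged neutrophil-like cells (378 CPM in CA and 853 CPM in sham) lay below its level in each other immune class.

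**Figure D5:**
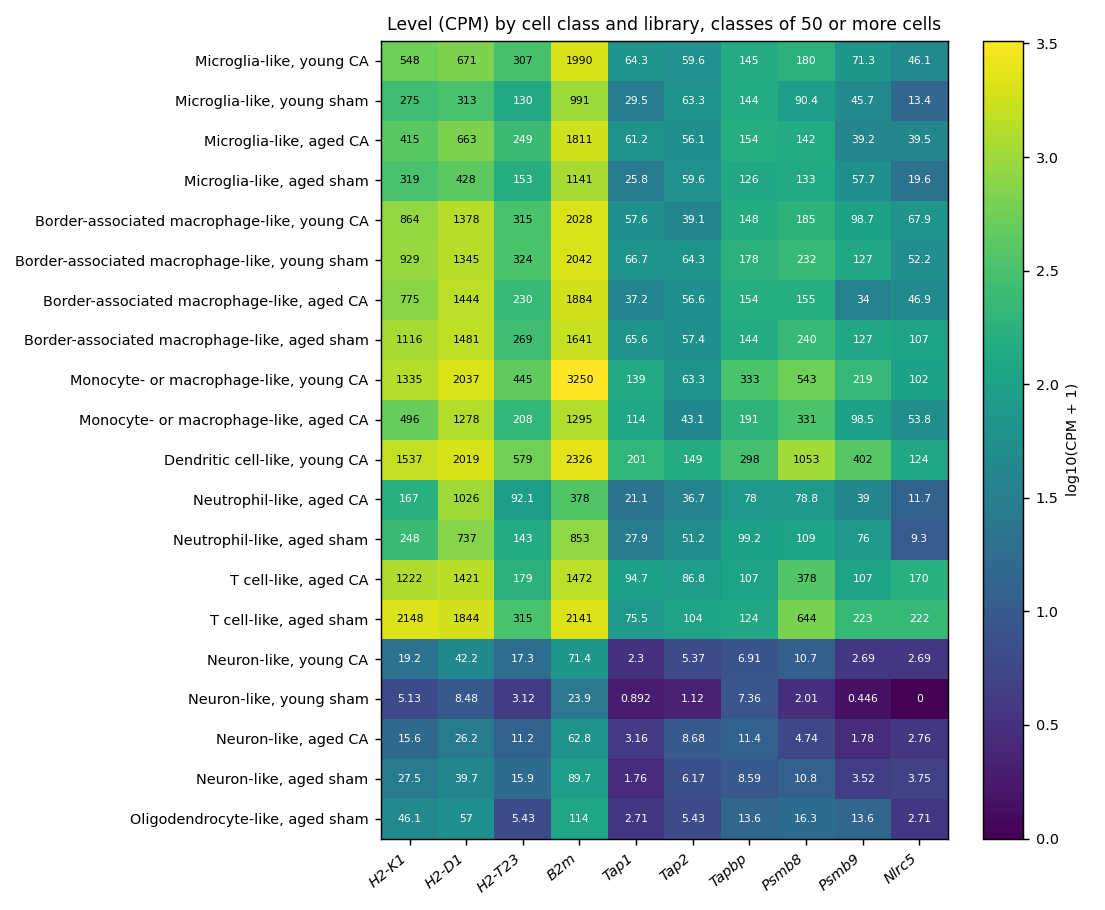
Level in CPM, as printed in each cell and coloured as log10(CPM + 1), of the 10 genes in each class and library with at least 50 cells. Immune classes lie above neuron-like and oligodendrocyte-like cells, and H2-K1 reaches 2148 CPM in aged sham T cell-like cells. Intervals overlapped for Nlrc5 in aged sham, at 9.30 CPM in neutrophil-like and 3.75 CPM in neuron-like cells. They also overlapped for Psmb9, at 34.0 CPM in aged CA border-associated macrophage-like and 13.6 CPM in aged sham oligodendrocyte-like cells.

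Border-associated macrophage-like cells, which resemble the macrophages of the brain's borders, were few. In young mice the median log2 ratio of CA to sham over the 10 genes was -0.16, 0 were past 2-fold in either direction (3.14% of 6302 genes were at least 2-fold higher and 5.11% lower) and every interval held 0. B2m stood at 2028 CPM in young CA and 2042 CPM in young sham (56 and 92 cells). Nlrc5 was at 67.9 CPM in young CA and 52.2 CPM in young sham on 33 and 43 UMIs (0.38, -0.32 to 1.07). In aged mice, on 67 CA and 50 sham cells, the median was -0.38, Psmb9 (34.0 CPM in aged CA and 127 CPM in aged sham, -1.90, -2.69 to -1.17) and Nlrc5 (46.9 CPM in aged CA and 107 CPM in aged sham, -1.18, -1.89 to -0.50) were at least 2-fold lower, where 11.5% of 5570 genes were (10.6% were at least 2-fold higher), and H2-K1 was at 775 CPM in aged CA and 1116 CPM in aged sham (-0.53). The microglial markers in these cells summed to 3101 CPM in young CA and 4153 CPM in young sham, and to 1242 CPM in aged CA and 3201 CPM in aged sham, and their part was not tested. For aged against young sham, 1 gene, Nlrc5, was at least 2-fold higher (106.6 CPM in aged sham and 52.2 CPM in young sham, 1.03), where 3.37% of genes were higher and 5.2% lower. For aged against young CA, 1 gene, Psmb9, was at least 2-fold lower (34.0 CPM in aged CA and 98.7 CPM in young CA, -1.54), where 6.31% of genes were higher and 7.73% lower. Whether the response differs from that of microglia-like cells was not tested.

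In neutrophil-like cells of aged mice (76 CA and 112 sham cells), the 10 genes had a median log2 ratio of -0.47, and 2 of 10 were above 0. Intervals lay below 0 for 5 genes and above 0 for 1. Of all 5928 genes compared, 51.0% had a log2 ratio above 0, and intervals were not counted over all genes. H2-D1 was the gene with its interval above 0, at 1026 CPM in CA and 737 CPM in sham (0.48, 0.33 to 0.63). B2m was lower, at 378 CPM in CA and 853 CPM in sham (-1.18, -1.35 to -1.0). It was the 1 gene past 2-fold, where 9.82% of 5928 genes were at least 2-fold lower and 9.51% higher. Microglial markers summed to 1049 CPM in the CA cells and to 3267 CPM in the sham cells, monocyte or macrophage markers to 4204 CPM in the CA cells and 10965 CPM in the sham cells, and the median depth was 15786.5 UMIs in the CA cells and 2560.0 in the sham cells, and their part was not tested. H2-K1 made up 14.0% of the H2-K1 and H2-D1 UMIs in CA neutrophil-like cells (12.3 to 15.8) and 25.2% in sham (21.9 to 28.8). In microglia-like cells that share was 45.0% in young CA, 46.8% in young sham, 38.5% in aged CA and 42.7% in aged sham, and in T cell-like cells of aged mice 46.2% in CA and 53.8% in sham. Counts of 3′ ends hold no correction for how well each gene is captured, so the share compares libraries and not the genes.

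In T cell-like cells of aged mice (118 CA and 197 sham cells), the 10 genes had a median log2 ratio of -0.46, 7 intervals lay below 0 and 1 gene, Psmb9, was at least 2-fold lower (107 CPM in aged CA and 223 CPM in aged sham, -1.06, -1.37 to -0.76), where 9.79% of 8404 genes were (5.56% were at least 2-fold higher). Of those 8404 genes, 47.7% had a log2 ratio above 0, and intervals were not counted over all genes. H2-K1 was at 1222 CPM in CA and 2148 CPM in sham (-0.81, -0.90 to -0.72). Tap1 was the exception, at 94.7 CPM in aged CA and 75.5 CPM in aged sham (0.33, -0.06 to 0.71). Co-receptor and receptor genes of class I were also read in these cells. Cd8a, a chain of the CD8 co-receptor, was at 89.4 CPM in CA and 315 CPM in sham, and Cd8b1 at 188 CPM in aged CA and 553 CPM in aged sham, while Klrd1, a chain of the receptor for Qa-1, was at 157 CPM in aged CA and 203 CPM in aged sham. The 10 T cell markers summed to 2899.7 CPM in aged CA and 6508 CPM in aged sham, and the 9 monocyte or macrophage markers to 511 CPM in aged CA and 1435 CPM in aged sham. The part of these levels in the class I ratios was not tested.

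In monocyte- or macrophage-like cells only the CA libraries held at least 50 cells (68 in aged and 294 in young), so age and not CA could be read. The 2 sets of cells differed in markers of other cells. Neutrophil markers summed to 9829 CPM in aged CA, with Ltf and Camp of the 11 at 0, and to 235 CPM in young CA, while the monocyte or macrophage markers summed to 15306 CPM in aged CA and 20229.7 CPM in young CA. The 10 dendritic cell markers summed to 233 CPM in aged CA and 435 CPM in young CA. The part of these markers in the ratios that follow was not tested. All 10 genes were lower in aged CA than in young CA, with a median log2 ratio of -0.86, and 4 of 10 were at least 2-fold lower where 10.6% of 8362 genes were (6.0% were at least 2-fold higher). Of those 8362 genes, 46.3% had a log2 ratio above 0. H2-K1 was at 496 CPM in aged CA and 1335 CPM in young CA (-1.43, -1.53 to -1.33), B2m at 1295 CPM in aged CA and 3250.2 CPM in young CA (-1.33, -1.39 to -1.27), Psmb9 at 98.5 CPM in aged CA and 219 CPM in young CA (-1.15) and H2-T23 at 208 CPM in aged CA and 445 CPM in young CA (-1.10). H2-D1 (-0.67) and Tap1 (-0.29) differed less. The share of H2-K1 in the H2-K1 and H2-D1 UMIs was 28.0% in aged CA and 39.6% in young CA. Dendritic cell-like cells reached 50 only in young CA (88 cells).

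Of the 13 listed receptors, Lilrb4a and Pirb could be compared in microglia-like cells. Lilrb4a, an inhibitory receptor of myeloid cells, was at 86.3 CPM in young CA and 4.59 CPM in young sham (4.23, 4.07 to 4.41), and at 213 CPM in aged CA and 13.9 CPM in aged sham (3.93, 3.80 to 4.07). Pirb, which binds class I in mice, was at 25.7 CPM in young CA and 14.6 CPM in young sham (0.81) and at 31.5 CPM in aged CA and 23.2 CPM in aged sham (0.44).

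The counts in neuron-like cells were taken as a floor for these levels. Whether they come from free RNA in the droplets was not tested. Neuron-like cells, whose class I level is known to be low, held B2m at 71.4 CPM in young CA, 23.9 in young sham, 62.8 in aged CA and 89.7 in aged sham, which is 3.59%, 2.41%, 3.47% and 7.86% of the level in microglia-like cells of the same library. The share differed by gene. For Nlrc5 it was 5.83%, 0%, 6.99% and 19.1% (11.1 to 30.8) in the same order. For Tap2 in aged CA it was 15.5% (11.2 to 20.8). The summed microglial markers in neuron-like cells were 4.89%, 2.24%, 4.37% and 5.46% of their level in microglia-like cells. Their median level per neuron-like cell, relative to barcodes that clearly carry them, was 0.02 in young CA and 0.03 in young sham. It was 0.01 in aged CA and 0.19 in aged sham, so the aged sham floor differs in kind from the others. No neuronal class I level is read from these values.

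The gene whose pattern over the class-by-library sums was most like the mean of the 10 was Psme1 (Pearson r = 0.99 over 20 sums, as a description, since sums of 1 library share depth and preparation). It led again over the 15 sums of immune classes alone (r = 0.95), a choice made after seeing the data, followed by Znrd1 (0.94), Sumo2 (0.94), Mrps16 (0.93) and Phf11a (0.91), with Psmb10 ninth (0.90). In the wider set the next were Ndufa2, Rpl23a and Tomm5 (0.99 each), genes of respiration, ribosome and mitochondrial import. Of 32285 genes, 10818 and 9906 were compared in the 2 sets.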

How the data were processed

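The authors deposited raw UMI counts per gene and barcode, for which the submitters' processing notes name Cell Ranger 7.1.0 and mm10. Neither annotation nor cell-calling settings are given in the sources used here. The other deposited columns hold gene identifiers and cell barcodes. The 10 genes and the lists were chosen with earlier results of these data known. Barcodes were kept with at least 500 UMIs, 200 genes and at most 10% mitochondrial UMIs, which the mitochondrial limit reduced by 663, 308, 902 and 162 in young CA, young sham, aged CA and aged sham. A class needed 3 of its markers seen, a summed level of at least 0.1 of the median of barcodes that clearly carry the list, and 1.5 times that of every other class. The first form of this gate was replaced once after class counts were seen, because it lost border-associated macrophages. Barcodes meeting several classes (238, 157, 134 and 723) were left out, which stands in for doublet removal; no doublet caller was run. Neuron-like and oligodendrocyte-like cells served as a floor, taken as a level of free RNA, and were not compared.

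Counts were summed per class and library (at least 50 cells) and scaled to CPM, with exact Poisson intervals and exact conditional binomial intervals for ratios (Python 3.11.15, scipy 1.17.1). With 1 library per group no test was run. A gene was compared with at least 20 UMIs and 10 CPM in 1 library of the pair, and 2-fold is the limit used. Named list genes are those past 2-fold at either age and the highest and lowest of each list, with a few examples from the interferon lists and the 10 genes of most similar pattern. TMM factors (edgeR 4.0.16) were an alternative scaling. Thinning drew 2000 UMIs per cell. The calculation of ratios and intervals was run on simulated Poisson counts with known fold changes. These counts held no spread between cells, animals or libraries, so they check the calculation only. Promoters were taken from RefSeq, GRCm38.p6, positions from GENCODE M21, and 98 of 98 named genes matched. Some genes of the lists are not reported here.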

Additional observations from a re-analysis of the deposited data

Results flagged for a closer look

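Psmb9 in microglia-like cells had a log2 ratio of CA to sham of -0.56 in aged mice and 0.64 in young mice, a difference of -1.20. It was picked out because the 2 ages moved in opposite directions, and the difference was not tested, since each group is 1 library. H2-Q7 had -0.17 in aged and 1.61 in young, a difference of -1.77, picked out for the same reason and likewise not tested. H2-Q7 reads can be shared with near-identical relatives. The lower aged Psmb9 level was not particular to microglia-like cells. In aged CA and aged sham it stood at 34.0 and 127 CPM in border-associated macrophage-like cells. It stood at 107 and 223 CPM in T cell-like cells and at 39.0 and 76.0 CPM in neutrophil-like cells. These classes come from the same aged libraries, so a difference between the pools cannot be told apart from one in microglia-like cells.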

How the results depend on the processing

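No paired analysis was possible because each group was 1 library. The median log2 ratio of the 10 genes in young microglia-like cells was 1.0, and 1.05 with cells thinned to 2000 UMIs, 0.97 as a mean over cells, 1.12 with TMM factors and 0.97 with cells of at least 5000 UMIs. In aged mice it was 0.50, and 0.46 thinned, 0.46 as a mean over cells and 0.64 with TMM factors. For aged against young sham it was 0.22, and 0.31 thinned, 0.30 as a mean over cells and 0.16 with TMM factors. TMM factors shifted the median of all genes by 0.12 in young and 0.14 in aged. The count of genes at least 2-fold higher in aged mice was 2, and 1 with the broad microglia list, thinning, a pseudocount of 1 CPM, or shared barcodes left out. The young count of 5 also depended on the setting. Over the settings the young log2 ratio crossed the 2-fold limit for H2-K1 (0.90 to 1.11), Psmb8 (0.88 to 1.11) and B2m (0.94 to 1.12). Aged Psmb8 was 0.10, and -0.04 thinned and -0.21 as a mean over cells, and the cause was not tested. Tap2 was -0.09 at both ages, and 0.03 in young and 0.05 in aged with TMM factors. Over 13 alternative settings and 4 comparisons, 142 summary values stayed close to the reported ones, 14 moved and 0 reversed. Of the other values, mostly of single genes, 453 stayed close and 95 moved. Beside aged Psmb8 and Tap2, sign changes of single genes were Tapbp in young mice (0.01, and -0.06 thinned) and H2-D1 in aged against young CA (-0.02, and 0.05 thinned and 0.03 as a mean over cells). The settings with at least 5000 UMIs per cell and without shared barcodes were chosen after seeing the data. Depth limits the border-associated macrophage-like cells, where Tap1, Tap2 and Nlrc5 rest on 19 to 55 UMIs per library, the aged CA microglia-like cells under 2000 UMIs, with 7 Psmb9 and 8 Nlrc5 UMIs, the neutrophil-like cells, where Nlrc5 had 15 UMIs in aged CA and 6 in aged sham and was not compared, and the top interferon grade of the sham libraries.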
